A study of Mus musculus with 2 samples.

Results

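The Hox cluster genes were taken as all protein-coding genes whose symbol begins with Hoxa, Hoxb, Hoxc or Hoxd. There were 39 of them: 11 in HoxA, 10 in HoxB, 9 in HoxC and 9 in HoxD. They made 40 entries among the 22367 protein-coding entries of the mm9 annotation, because Hoxa3 was listed there 2 times, and 39 of the 21887 protein-coding genes placed on mm10. The rule itself reads gene symbols only. The data were ChIP-seq peak lists for H3K9me3, histone H3 trimethylated on lysine 9, in the male mouse embryonic stem cell line E14TG2a.4 from strain 129/Ola, whose stage is given as embryonic, 3.5 day. The 2 biological replicates, each its own biosample of this line, formed 1 group. No treatment, second cell type or control library was analysed here, so every value below is a level in this line and not a change. The read depth behind the lists is unknown.

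Hox genes encode homeodomain transcription factors that give cells their position along the head-to-tail axis of the embryo and the limb. Within a cluster the genes are numbered by paralog group, and those of low number are used earlier and further forward than those of high number. In embryonic stem cells the clusters are known as Polycomb targets, silent under H3K27me3, whereas H3K9me3 is the mark bound by the HP1 proteins and is best known at repeats and other constitutively silent chromatin.

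In the shared mm9 regions and the replicated mm10 peaks, Hox genes carried H3K9me3 about as often as protein-coding genes at large, and the Hox promoter with the highest fold enrichment was that of Hoxd12. Of 40 Hox promoters, 2 (5%) lay within 1 kb of a region called in both replicates, those of Hoxd12 and Hoxb3, against 5.54% of all protein-coding promoters. Of 39 Hox gene bodies, 11 (28.2%) held a replicated peak, against 30.8% of all protein-coding bodies. Among protein-coding genes within the Hox length range the share was 20.2%. The Hox body count depended on the list and on the fold limit. The likeness therefore holds only for the whole replicated list set against bodies of all lengths. The count was 16 of 39 in replicate 1, against 34.1% of all bodies, and 25 of 39 in replicate 2, against 35.9%. Both Hox shares lay above the share of all bodies. For replicated peaks of fold enrichment 4 or more it was 1 of 39, a share below the 22.7% of all bodies. The 4 clusters together held 7.93 replicated peaks per 100 kb, against 4.64 over all chromosomes, most of them weak. The strongest intervals inside the HoxD, HoxC and HoxB clusters are shown first, because the same 3 loci, matched by distance to the flanking Hox genes, led their clusters in both genome builds. Each stretch is the central 300 bases of a region shared by the replicates, on the plus strand of mm9. None overlaps an annotated exon, and capitals mark every CG dinucleotide, the site of DNA methylation. The Hoxd12 stretch was set by rule as the strongest at a Hox promoter, and the other two were chosen after their values were seen. The Hoxd12 stretch is chr2:74512151-74512450, within 1 kb upstream of the start of Hoxd12. The second stretch is chr15:102816451-102816750, between Hoxc9 and Hoxc8. The third is chr11:96072751-96073050, in the long interval between Hoxb13 and Hoxb9.
Hoxd12 promoter region: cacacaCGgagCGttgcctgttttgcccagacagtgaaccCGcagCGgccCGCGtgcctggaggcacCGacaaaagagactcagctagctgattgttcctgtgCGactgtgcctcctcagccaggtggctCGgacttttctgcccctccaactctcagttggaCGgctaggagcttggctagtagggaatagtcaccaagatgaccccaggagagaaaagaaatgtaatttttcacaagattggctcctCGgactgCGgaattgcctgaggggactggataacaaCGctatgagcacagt
Hoxc9 to Hoxc8 region: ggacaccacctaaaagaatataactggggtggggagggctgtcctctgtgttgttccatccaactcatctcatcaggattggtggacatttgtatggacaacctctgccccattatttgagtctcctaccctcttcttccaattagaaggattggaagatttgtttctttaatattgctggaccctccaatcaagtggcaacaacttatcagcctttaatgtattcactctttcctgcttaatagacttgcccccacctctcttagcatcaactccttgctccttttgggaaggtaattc
Hoxb13 to Hoxb9 region: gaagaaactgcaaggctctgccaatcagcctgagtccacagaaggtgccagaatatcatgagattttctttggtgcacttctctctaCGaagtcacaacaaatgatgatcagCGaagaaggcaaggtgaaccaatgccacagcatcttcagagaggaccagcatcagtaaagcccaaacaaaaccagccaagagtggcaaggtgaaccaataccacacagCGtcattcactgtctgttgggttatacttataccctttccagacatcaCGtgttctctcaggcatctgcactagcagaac
The Hoxd12 stretch held 13 CG dinucleotides, the Hoxb13 to Hoxb9 stretch 4 and the Hoxc9 to Hoxc8 stretch 0. At least 1 CG was present in 80.8% of all 300-base windows of mm9. As a measure of repeated sequence, bases were counted that start a 16-mer occurring at least 50 times in the genome on either strand. Their share was 0% in the Hoxd12 stretch, 0.333% in the Hoxc9 to Hoxc8 stretch and 21.3% in the Hoxb13 to Hoxb9 stretch.

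Promoters were examined in mm9, where the authors called wide regions in each replicate and where transcript starts were available. A promoter counted as marked when bases covered in both replicates, called shared regions here, came within 1 kb of any of the gene's transcript starts. This held for 2 of the 40 Hox entries, or 5%, against 5.54% of all protein-coding promoters. The share at Hox promoters was thus near that of genes at large. HoxB and HoxD had 1 marked promoter each, and HoxA and HoxC had 0. By paralog group, 1 of 13 entries in groups 1 to 4 was marked, 0 of 11 in groups 5 to 8 and 1 of 16 in groups 9 to 13.

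Hoxd12 (ENSMUSG00000001823.4) belongs to the posterior genes of HoxD, which pattern the limb and the hind part of the trunk. Its fold enrichment, the authors' ratio for the region, was 6.81 in replicate 1 and 8.49 in replicate 2, a mean of 7.65 ± 1.19 (SD, n = 2). The region ran from 74511201 to 74513200 on chromosome 2 in replicate 1 and from 74511401 to 74513600 in replicate 2. Its single transcript start, at 74512986 on the plus strand, lay inside both. The marked sequence in both replicates was 1.80 kb long and reached from 1.585 kb upstream of the start to 0.214 kb downstream.

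Hoxb3 (ENSMUSG00000048763.5), an anterior HoxB gene active in the hindbrain, was marked at 1 of its 4 transcript starts, the one at 96189376 on chromosome 11. The nearest shared bases, from 96190001 to 96192400, lay 0.625 kb downstream of that start and inside the gene. The fold enrichment was 2.26 in replicate 1 and 2.18 in replicate 2, or 2.22 ± 0.06 (SD, n = 2). Both Hoxd12 values lay above both Hoxb3 values. Of the 6 shared regions inside the spans, 5 had the higher fold enrichment in replicate 2, and that of Hoxb3 was the exception.

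A further 2 Hox promoters were marked in replicate 2 only. Over all protein-coding promoters, 6.33% were marked in replicate 1, 7.83% in replicate 2 and 3.06% in 1 replicate without shared bases in the other. Hoxb1, which specifies a hindbrain segment, had a region of fold enrichment 1.98 from 96226401 to 96230800 on chromosome 11. Hoxd3, an anterior HoxD gene, had one of fold enrichment 2.02 at 1 of its 6 starts, from 74581801 to 74584200 on chromosome 2. Neither had a region in replicate 1. The remaining 36 Hox entries had no region within 1 kb in either replicate.

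The median distance from a Hox entry to its nearest shared region was 33.4 kb, against 26.95 kb over all protein-coding entries. By cluster the median was 63.6 kb in HoxA, 27.9 kb in HoxB, 18.1 kb in HoxC and 22.5 kb in HoxD. Behind Hoxd12 and Hoxb3, the nearest were Hoxc9 at 2.27 kb, Hoxc8 at 3.85 kb, Hoxd11 at 4.25 kb, Hoxd13 at 5.03 kb and Hoxc10 at 5.77 kb. These 5 are posterior or central genes of HoxC and HoxD, and their distances are not independent. Hoxd11 and Hoxd13 were both nearest to the region at Hoxd12, and Hoxc9 and Hoxc10 to the same region between them. None of the 12 HoxA entries had a shared region within 5 kb, and the most distant of them lay 85.3 kb away. The greatest distance, 87.8 kb, was that of Hoxd1 at the anterior end of HoxD.

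A second look at starts in mm10 used the RefSeq start table, which held 22 of the 39 Hox genes. A replicated peak, from the authors' list built from the pooled and per-replicate mm10 peaks, lay within 1 kb of 2 of the 22. The same was true of 5.89% of all protein-coding genes in that table. The first was Hoxd12, with a peak of fold enrichment 10.9 ending 83 bp before its start. The second was Hoxb1, with a peak of 2.57 at 560 bp. Hoxd12 was thus marked in both builds, while Hoxb1 was marked at its promoter in mm9 in replicate 2 only. Hoxb3, the other promoter marked in mm9, was not in the RefSeq start table, so its starts were not examined in mm10.

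Gene bodies were examined in mm10, where the authors' peaks are narrow. Of 39 Hox bodies, 11 (28.2%) held at least 1 bp of a replicated peak, against 30.8% of all protein-coding genes. Hox genes are short, with a median length of 3.74 kb against 17.2 kb over all protein-coding genes. Among the 14013 protein-coding genes no shorter or longer than the Hox genes, from 1.78 to 44.0 kb, the share was 20.2%. The Hox count moved with the list. It was 16 of 39 in replicate 1 alone and 25 of 39 in replicate 2 alone. Of all protein-coding bodies, 34.1% and 35.9% held a peak there, both below the Hox share. The Hox count was 25 of 39 in the pooled list, above the 38.0% of all bodies. For replicated peaks of fold enrichment 4 or more it was 1 of 39, below the 22.7% of all. The median covered share was 0% over the Hox bodies and 0% over all protein-coding bodies. Hoxb1 alone had at least 10% of its body covered, while 5.34% of protein-coding genes passed that level.

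Hoxb1 was the most covered Hox body. Peaks covered 17.9% of its 2.51 kb in replicate 1, 53.2% in replicate 2 and 32.3% in the replicated list, which held 2 peaks of fold enrichment 2.57 and 3.49. The replicates therefore differed widely in extent, although each called a peak there. The covered share of the other 10 bodies with a replicated peak ran from 1.03% to 8.10%, and their peaks had modest fold enrichment, at most 4.35.

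**Figure D1:**
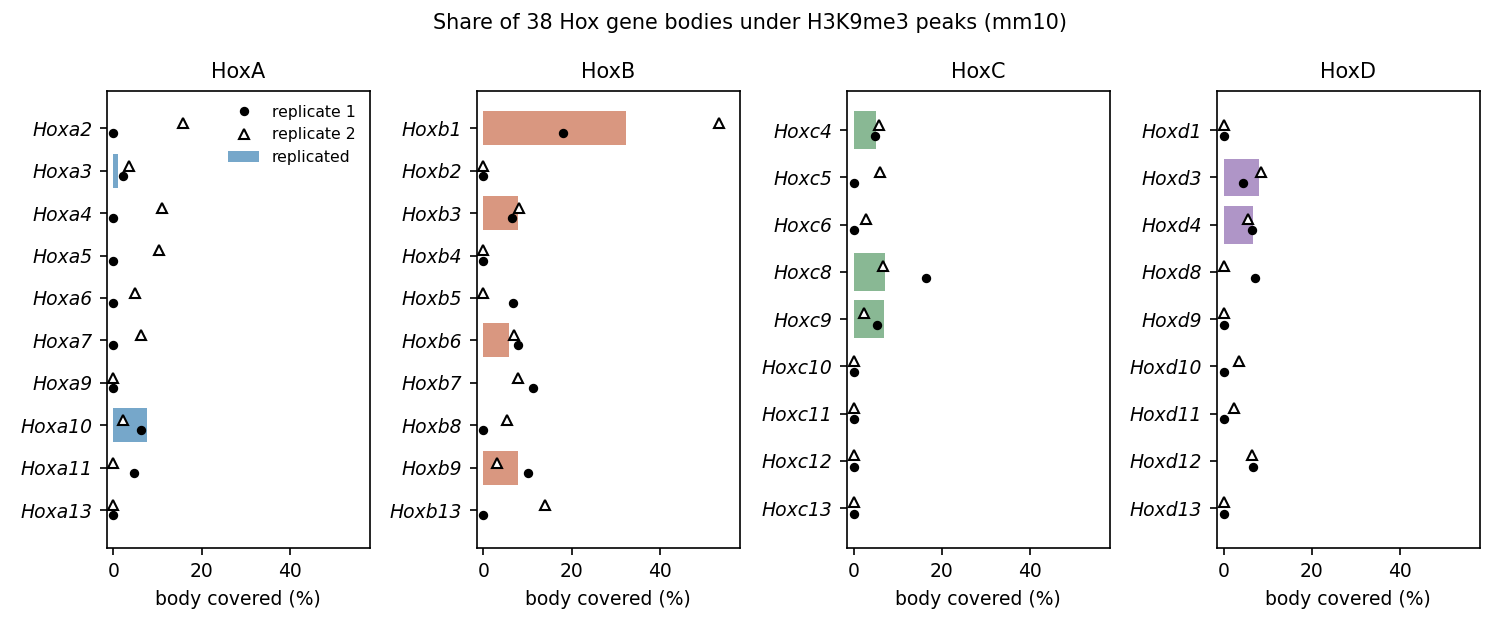
Share of 38 Hox gene bodies covered by H3K9me3 peaks in mm10, in percent, by cluster and paralog group. Bars show the replicated list, filled circles replicate 1 and open triangles replicate 2. Hoxb1 stands above all others, at 32.3% in the replicated list, and most bodies have no bar.

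In HoxB, Hoxb3 held 9 replicated peaks over 40.8 kb, covering 7.75% of the body, with 6.34% in replicate 1 and 8.02% in replicate 2. Hoxb6 was covered over 5.88%, with 7.73% and 6.94% in replicates 1 and 2. Hoxb9 was covered over 7.80%, with 10.2% and 3.13%. Hoxb6 and Hoxb9 are trunk genes, and each held 1 replicated peak. The small Hoxb4, which lies inside the RefSeq body of Hoxb3, had no peak in any of these lists.

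In HoxD, Hoxd3 held 6 replicated peaks over 36.3 kb, covering 8.10%, with 4.49% in replicate 1 and 8.40% in replicate 2. Hoxd4, which lies inside the RefSeq body of Hoxd3, shared 2 of these peaks and was covered over 6.71%, with 6.33% and 5.46%. These bodies are therefore not independent counts. The body of Hoxd12 had no replicated peak, since its peak ended before the start, although 6.57% and 6.35% of it were covered in replicates 1 and 2.

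In HoxC, Hoxc4 was covered over 5%, with 4.75% in replicate 1 and 5.68% in replicate 2. Hoxc8, which acts in the thorax, was covered over 7.06%, with 16.4% and 6.61%. Hoxc9, its posterior neighbour, was covered over 6.85%, with 5.41% and 2.36%. In HoxA, the 44.0 kb body of Hoxa3 was covered over 1.03%, with 2.24% and 3.45% in the replicates. Hoxa10, a gene of the uterus and hindlimb, was covered over 7.59%, with 6.32% and 2.12%. Each of these 5 bodies held 1 replicated peak.

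Of the 28 Hox bodies with no replicated peak, 11 had no peak in either replicate: Hoxa9, Hoxa13, Hoxb2, Hoxb4, Hoxc10, Hoxc11, Hoxc12, Hoxc13, Hoxd1, Hoxd9 and Hoxd13. The 4 genes at the posterior end of HoxC were all among them. A peak was called in replicate 2 only over 12 bodies, among them Hoxa2, Hoxa4 and Hoxb13 at 15.7%, 11.1% and 14%, and in replicate 1 only over 3, Hoxa11, Hoxb5 and Hoxd8. Hoxb7 and Hoxd12 had peaks in both replicates that did not enter the replicated list over the body. Over all protein-coding bodies, 34.1% held a peak in replicate 1 and 35.9% in replicate 2. Of the 39 Hox bodies, 16 and 25 did. The share of all bodies with a peak in neither replicate was not counted, so the 11 bare Hox bodies have no genome value beside them. By paralog group, 6 of 12 genes in groups 1 to 4 held a replicated peak, 2 of 11 in groups 5 to 8 and 3 of 16 in groups 9 to 13. Hoxa3, Hoxb3 and Hoxd3, singled out after their values were seen, are the 3 longest Hox bodies, 121 kb in all. They made up 24.6% of the 4 spans and were overlapped by 16 of the 39 peaks in them, or 41.0%.

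A cluster's span was taken from the first to the last base of its protein-coding Hox genes in mm10. HoxA (chromosome 6, 52155367 to 52260880) was 105.5 kb long, HoxB (chromosome 11, 96194316 to 96368254) 173.9 kb, HoxC (chromosome 15, 102921131 to 103036856) 115.7 kb and HoxD (chromosome 2, 74668225 to 74765142) 96.9 kb. HoxA had 4 replicated peaks covering 2.04% of the span, with 2.67% in replicate 1 and 4.00% in replicate 2. HoxB had 18 peaks covering 5.09%, with 4.83% and 6.13%. HoxC had 8 peaks covering 4.78%, with 5.55% and 4.54%. HoxD had 9 peaks covering 5.44%, with 4.26% and 6.88%. HoxA had the lowest coverage in both replicates and in the replicated list, while HoxB, HoxC and HoxD changed order from 1 replicate to the other.

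The 4 spans together were covered over 4.43%, the 8 flanks of 200 kb over 2.99% and all chromosomes over 3.50%. Chromosomes 6, 11, 15 and 2, which carry the clusters, were covered over 3.85%, 3.34%, 3.63% and 3.07%. HoxA therefore lay below its chromosome in the replicated list, and HoxB, HoxC and HoxD lay above theirs. Peaks numbered 7.93 per 100 kb in the spans, 4.31 in the flanks and 4.64 over all chromosomes. In the wide mm9 regions shared by the replicates, HoxA had no region in either replicate, HoxB had 3 covering 2.53% of its span, HoxC 2 covering 2.42% and HoxD 1 covering 1.86%.

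**Figure D2:**
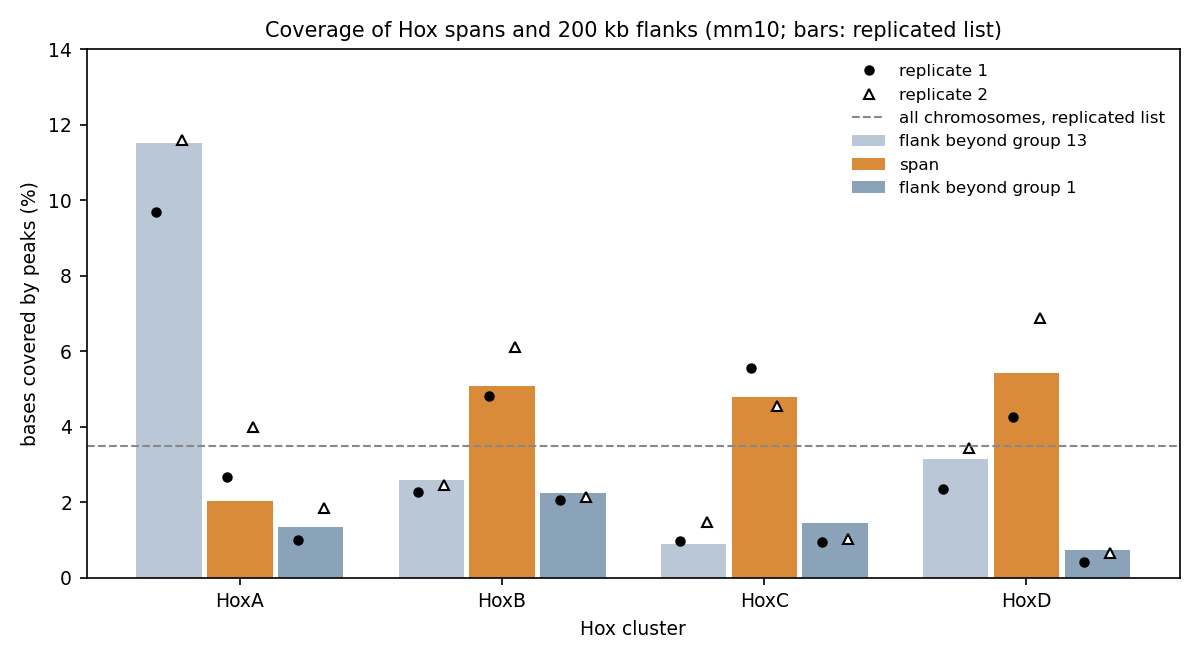
Percent of bases covered by H3K9me3 peaks in the span of each Hox cluster and in the 200 kb flank beyond each end, mm10. Bars show the replicated list, filled circles replicate 1, open triangles replicate 2 and the dashed line the 3.50% of all chromosomes. The HoxA flank beyond group 13 reaches 11.5%, while the HoxA span lies at 2.04%.

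Peaks inside the spans were mostly weak. Their fold enrichment in the replicated list ran from 2.29 to 10.9, with a median of 3.30 against 4.2 over all replicated peaks, and 33 of 39 (84.6%) lay below that genome median. The 69 peaks of the flanks had a median of 3.90. In their own lists, 27 of the 39 span peaks (69.2%) overlapped a peak in both replicates, against 78.9% of all replicated peaks, 6 in replicate 1 only and 6 in replicate 2 only. A Hox body was touched by 24 of the 39, and Hox bodies filled 56.6% of the spans. Of the peaks, 5 had the identical fold enrichment of 2.85 and −log10 p of 5.09, a pair of values shared by 2328 peaks of the whole list.

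The leading peak of HoxD, from 74673257 to 74674930, had a fold enrichment of 10.9 and a −log10 p of 58, above 95.3% of all replicated peaks. In the replicates it was 9.62 and 13.4. It lay upstream of Hoxd12, with its edges 1.76 kb and 0.083 kb before the start, and it made up 31.8% of the covered bases of the span. After it came the longest stretch of HoxD without a replicated peak, 49.6 kb from 74674931 to 74724524. It holds Hoxd12, Hoxd11, Hoxd10, Hoxd9 and Hoxd8. In the lists of replicates 1 and 2, the longest HoxD stretch without a peak was 23.4 and 23.8 kb. The other 8 HoxD peaks lay at the anterior side and had fold enrichments from 2.29 to 3.75. Of these, 6 lay in Hoxd3 and 2 in Haglr, a long noncoding RNA gene next to Hoxd1.

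The leading peak of HoxC, from 102985279 to 102986733, had a fold enrichment of 8.91, with 6.50 and 9.0 in the replicates, above 91.5% of all replicated peaks. It lay between Hoxc9 and Hoxc8, with its edges 5.26 and 3.81 kb upstream of the body of Hoxc8. The matching mm9 region had fold enrichments of 3.51 and 4.4, or 3.95 ± 0.63 (SD, n = 2). The other 7 HoxC peaks ran from 2.82 to 3.76. The first 29.7 kb, with Hoxc13 and Hoxc12, had no replicated peak. In the lists of replicates 1 and 2, the longest HoxC stretch without a peak was 20.6 and 22.5 kb.

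The leading peak of HoxB, from 96211079 to 96212489, had a fold enrichment of 7.55, with 8.84 and 9.51 in the replicates, above 86.6% of all replicated peaks. It began 16.8 kb downstream of the start of Hoxb13, in the long interval that separates Hoxb13 from Hoxb9. The matching mm9 region had 4.70 and 5.05, or 4.88 ± 0.25 (SD, n = 2). A second peak in that interval, from 96227613 to 96228536, had 4.90, and a run of 3 peaks inside Hoxb3, from 96328724 to 96330408, had 4.05, 4.35 and 4.05. A further peak between Hoxb13 and Hoxb9, from 96219080 to 96219596, had 3.76. HoxB held 6 of the 8 span peaks with a fold enrichment of at least 4, and its other 12 ran from 2.53 to 3.90.

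HoxA had no such peak. Its 4 peaks had fold enrichments of 3.30 in Hoxa3, 2.85 at the noncoding gene Mira, 3.27 in Hoxa10 and 3.15 at Hoxa11os, an antisense RNA gene of Hoxa11. Only the first and the last were called in both replicates. The Hoxa3 peak, from 52171307 to 52171758, had 3.12 and 3.01 in the replicates, and the Hoxa11os peak 2.34 and 3.55. The longest stretch without a replicated peak was 43.4 kb, from 52171759 to 52215195, and covered most of Hoxa3 together with Hoxa4, Hoxa5 and Hoxa6. In the lists of replicates 1 and 2, the longest HoxA stretch without a peak was 38.7 and 19.7 kb.

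**Figure D3:**
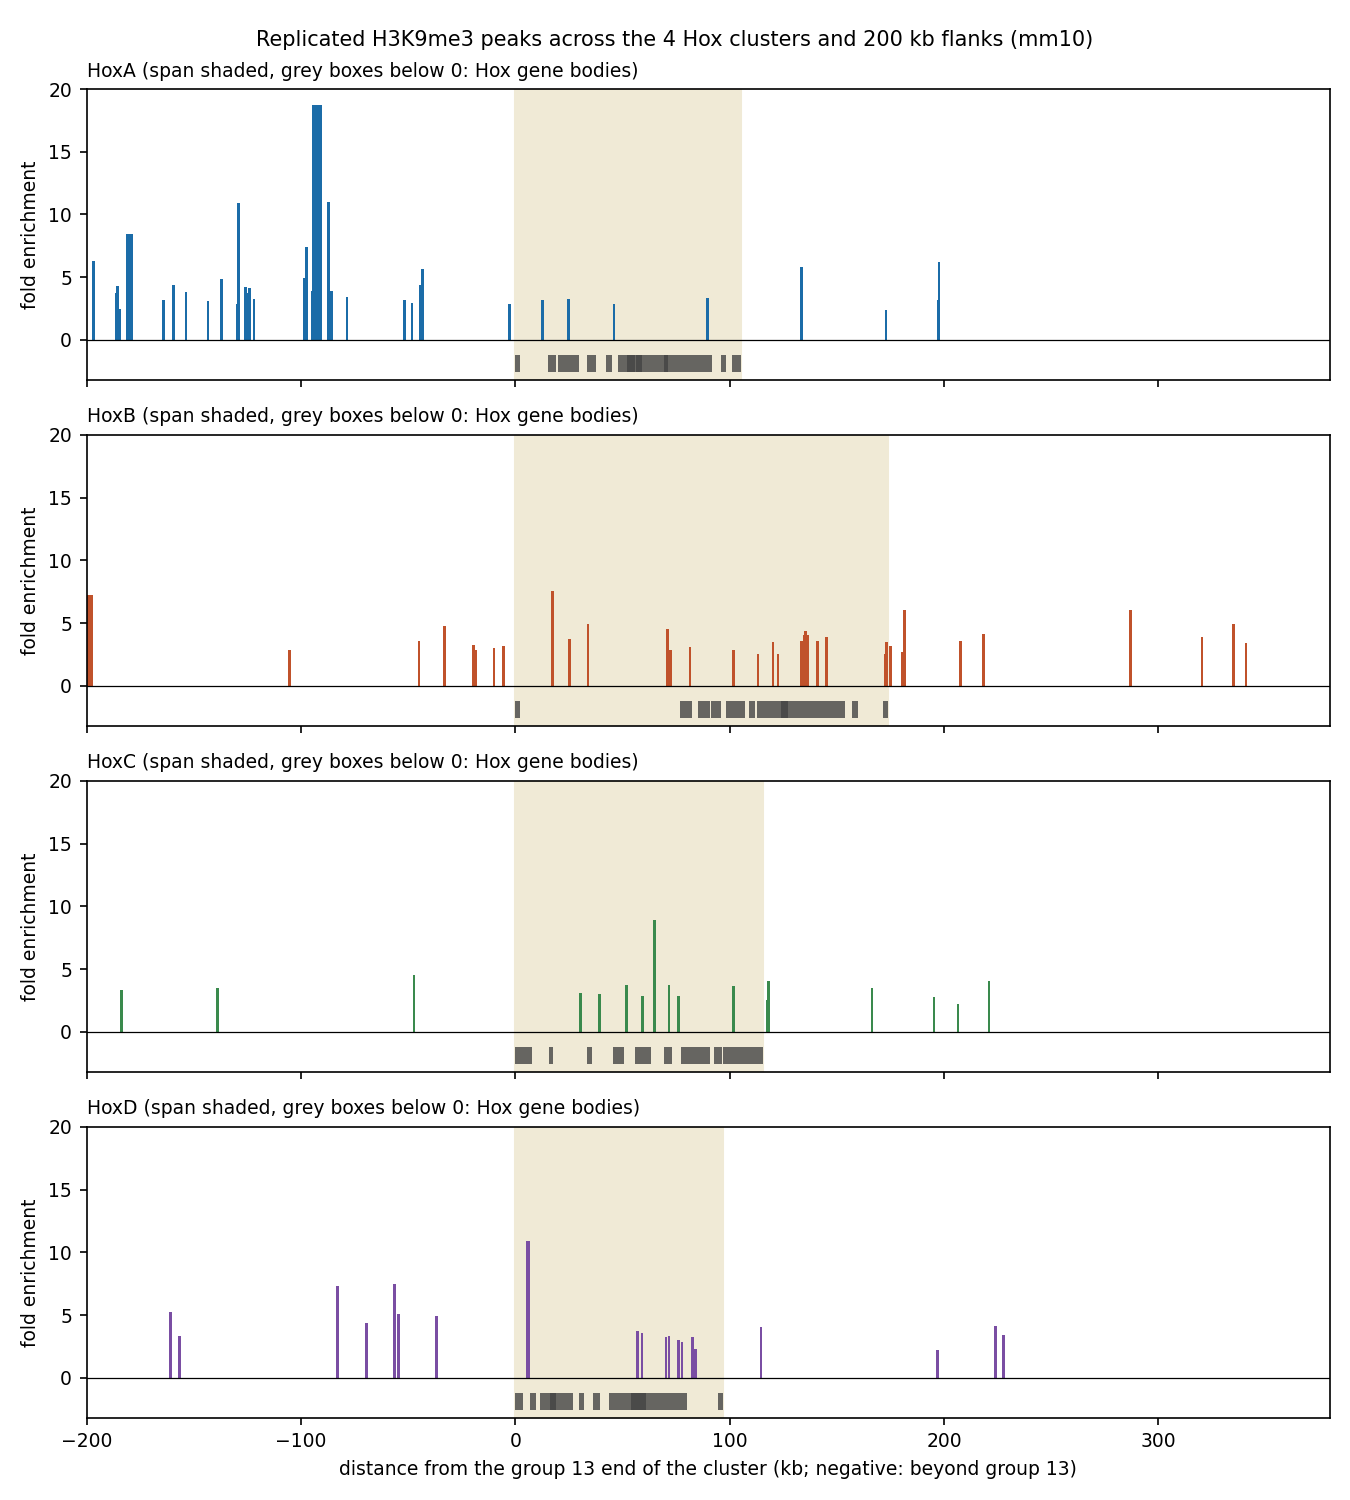
Replicated H3K9me3 peaks over the 4 Hox clusters and 200 kb on each side in mm10, as distance in kb from the group 13 end of each cluster. Bar height is the fold enrichment, narrow peaks are drawn at a minimum width, shading marks the span and grey boxes are Hox gene bodies. The tallest bars inside a span are 10.9 in HoxD, 8.91 in HoxC and 7.55 in HoxB, while the tallest of all, 18.8, stands in the HoxA flank beyond group 13.

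The spans also held 6 microRNA genes, which are shown because 2 of them, both coding for miR-196a, lay wholly under replicated peaks. Over all 1228 microRNA genes placed on mm10, 2.36% did, and 6 genes are too few for a comparison of shares. MicroRNAs of the miR-196 family are known to repress Hox transcripts, and those of the miR-10 family lie beside the group 4 genes. The mature 5p sequences are from RefSeq (GRCm38.p6), 5′ to 3′, with the seed in capitals. The miR-196 members share 1 seed and the miR-10 members another.
miR-196a-5p: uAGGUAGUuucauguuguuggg
miR-196b-5p: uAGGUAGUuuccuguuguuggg
miR-10a-5p: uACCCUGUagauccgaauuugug
miR-10b-5p: uACCCUGUagaaccgaauuugug
miR-615-5p: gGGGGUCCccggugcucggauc
The hairpin of Mir196a-1 (chromosome 11, 96265164 to 96265265, plus strand), between Hoxb13 and Hoxb9, was covered over 100% in both replicates and in the replicated list, by a peak of fold enrichment 4.5. The hairpin of Mir196a-2 (chromosome 15, 102973350 to 102973434, plus strand), between Hoxc10 and Hoxc9, was covered over 100% in replicate 2 and in the replicated list, by a peak of 3.76. In replicate 1 it was covered over 0%, and the nearest peak was 105 bp from its midpoint. The third family member, Mir196b in HoxA, had its nearest replicated peak 5840 bp away. Mir10a and Mir10b had theirs at 716 and 642 bp, and Mir615 at 7259 bp.

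Of 25 long noncoding RNA genes in or reaching into the spans, 6 (24%) held a replicated peak, against 31.8% of all long noncoding RNA genes. Their median length was 4.21 kb, against 8.43 kb over all such genes. The 6 were Gm51876 beside Mir196a-1 at 18.0%, Hoxa11os at 16.7%, Mira at 11.7%, Haglr at 4.53%, Hoxb5os at 3.24% and Gm30528 at 3.02%. Hotair in HoxC and Hotairm1 in HoxA, RNA genes known for their link to Hox regulation, had no peak in either replicate or the replicated list. Hotairm2, Hoxaas2, Hoxaas3, Hoxb3os, Hoxd3os1, Gm53, Gm38462, Gm14424, 5730596B20Rik, LOC115490409 and LOC115490410 had peaks in at least 1 replicate but none in the replicated list. Gm15050, Gm52902, Gm30134, Gm11538, Gm36878, Gm29905 and the pseudogene Gm11539 had none.

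Among the flanks, the one beyond Hoxa13 stood apart. It held 28 replicated peaks that covered 11.5% of the flank, against 9.69% for the peaks of replicate 1 and 11.6% for those of replicate 2. The leading peak, from 52350899 to 52355645 on chromosome 6, had a fold enrichment of 18.8, with 10.1 and 21.6 in the replicates. It lay beyond Evx1, a homeobox gene next to Hoxa13 whose own body had no peak. In mm9 the stretch at the same distance from Hoxa13 lay in a 14.4 kb shared region, from 52296001 to 52310400, with fold enrichments of 4.88 and 7.53, or 6.21 ± 1.88 (SD, n = 2). Hottip, a noncoding RNA gene beside Hoxa13, was covered over 6.21%, with 0% in replicate 1 and 5.65% in replicate 2. Its only replicated peak, of fold enrichment 2.85, overlapped a peak of neither replicate. Evx1os was covered over 18.4%, with 11.8% and 17.6% in replicates 1 and 2.

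The other 7 flanks were covered less. The opposite flank of HoxA held 4 peaks covering 1.34%, with a highest fold enrichment of 6.24. Those beyond group 13 and beyond group 1 had 2.58% and 2.25% in HoxB, 0.898% and 1.44% in HoxC, and 3.14% and 0.740% in HoxD. Neither HoxC flank had a shared mm9 region. Of 16 protein-coding genes in the 8 flanks, 4 (25%) held a replicated peak, against 30.8% of all protein-coding genes: Igf2bp1 at 6.03% and Ttll6 at 1.76% beyond Hoxb13, Skap1 at 1.42% beyond Hoxb1, and Mtx2 at 0.618% beyond Hoxd1. Evx2, the homeobox gene next to Hoxd13, had none in the replicated list and 2.09% in replicate 2. Cbx5, which codes for the H3K9me3-binding protein HP1 alpha and lies beyond the anterior end of HoxC, had no peak in either replicate.

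The spans differed from most H3K9me3 sequence in composition. In mm9 they held 24.4 CG dinucleotides per kb and 6.90% high-copy bases, the flanks 10.8 per kb and 13%, and all chromosomes 8.34 per kb and 18.7%. All shared regions of the genome held 10.6 per kb and 51.4% high-copy bases. The 6 shared regions inside the spans held 15 per kb and 7.61%, and the 11 in the flanks 9.53 per kb and 31.4%. The span regions were not alike. Those of HoxB starting at 96072401 and 96089001 held 23.2% and 23.8% high-copy bases, against 11.2% in the HoxB span. The region at Hoxd12 held 28.3 per kb and 1.17%, close to the HoxD span as a whole at 28.0 per kb and 4.62%. The large HoxA flank region held 10.1 per kb and 37.6%, and a HoxD flank region starting at 74422601 held 72.7% high-copy bases. Over promoters, Hox entries had a median of 40.9 CG dinucleotides per kb, against 26.2 over all protein-coding entries, and 3.33% high-copy bases against 4.68%. The treatment of reads with several matching positions is not stated here, and its part in these values was not tested.

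**Figure D4:**
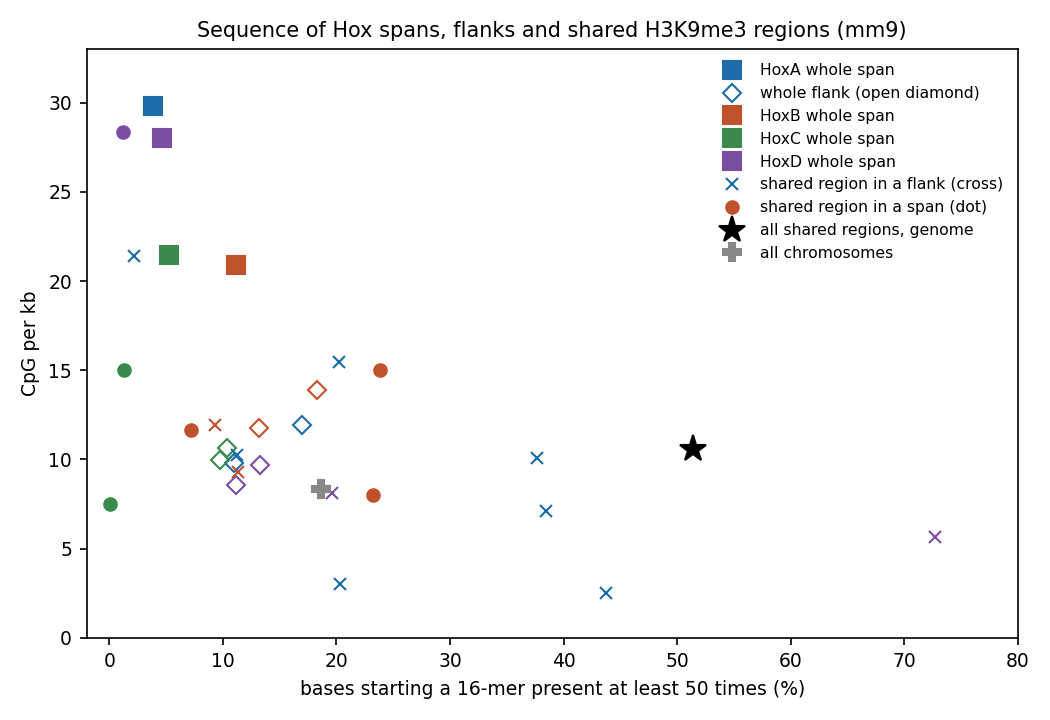
CG dinucleotides per kb against high-copy bases in percent (those that begin a 16-mer with 50 or more genomic copies) in mm9, for whole Hox spans (squares), whole flanks (open diamonds) and shared H3K9me3 regions in spans (dots) and flanks (crosses). The shared regions in spans stay below 24% high-copy bases, against 51.4% for all shared regions of the genome (star) and 18.7% for all chromosomes (plus).

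Genes that act with or on Hox genes were described by the same promoter rule. Of 63 such gene symbols, matched by 65 mm9 entries, 1 was marked, against 5.54% of all protein-coding promoters. It was Ash2l, a subunit of the Trithorax-type H3K4 methyltransferases, at 2.48 and 2.53 in the replicates, or 2.5 ± 0.03 (SD, n = 2). The shared region lay 0.966 kb from the nearest Ash2l start, just inside the 1 kb limit. Kmt2b was matched by entries on chromosomes 7 and 15, so that symbol stood for more than 1 locus. None of 25 Polycomb genes, 9 cofactor genes of the TALE class, 8 Cdx, Evx and ParaHox genes, and 11 retinoic acid genes with Ctcf was marked in either replicate. In their mm10 bodies, 18 of the 63 (28.6%) held a replicated peak, against 30.8% of all protein-coding genes: 7 Polycomb, 5 retinoic acid, 4 TALE, 2 Trithorax and 0 Cdx, Evx or ParaHox genes. The most covered was Ring1, which codes for a Polycomb ubiquitin ligase, at 31.2%. Ash2l was covered over 6.17%. The clustered protocadherins, another family in tandem arrays, had 1 of 24 promoters marked in mm9 and 32 of 57 bodies (56.1%) with a replicated peak in mm10, against the same 30.8%. Their median body length was 90.3 kb, against 17.2 kb over all protein-coding genes. The mm9 and mm10 annotations listed different numbers of protocadherin genes. Overlap among the 57 bodies was not examined, so they are not taken as independent counts.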

How the data were processed

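H3K9me3 ChIP-seq peak lists of 2 replicates of E14TG2a.4 were analysed. Per the deposited file lists, the mm9 lists are broadPeak and the mm10 lists narrowPeak files, both replicates' alignments went into the pooled mm10 list, which with the per-sample lists gave the replicated list. Each interval carries a fold enrichment, a linear ratio deposited by the authors, with no reference stated. The deposited mm9 p-values and q-values are linear, the largest being 0.00956, and mm9 boundaries are multiples of 200 bp. The mm10 lists give the authors' −log10 p and −log10 q. The aligner and caller were not given in the sources used here. The same holds for the pooling status of the third mm9 list. Fold enrichments were used to describe and rank, with no test, since 1 group has no contrast. Depth is unknown, so no interval could be set. Wide regions reach a promoter from further away than narrow peaks.

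Coverage, overlap (at least 1 bp) and distances were computed with Python 3.11.15, numpy 2.4.6, pandas 2.3.3 and numba 0.67.0, and the interval and 16-mer code was tested on simulated data. Promoters used GENCODE M1 on mm9, and bodies used RefSeq GRCm38.p6. No coordinates were converted. The values of 2 single genes are not reported here. Members and gene lists were chosen with earlier results of these data known. Named were all Hox genes with a shared or single-replicate promoter region or a replicated body peak, all other genes in the spans, the replicated span peaks (the weaker ones as ranges), up to 3 covered coding genes per flank and up to 4 marked regulators; Ring1 and the noncoding flank genes were named after their values were seen. Alternatives were each replicate alone, series-level lists, a fold enrichment of at least 4, a −log10 q of at least 2, other windows, overlaps and flank lengths.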

Additional observations from a re-analysis of the deposited data

How the results depend on the processing

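Few results kept their value under the alternatives run, and the cause was not tested. The 2 marked Hox promoters became 4 with the series-level mm9 list, 1 for regions of fold enrichment 4 or more, 5 within 5 kb, 1 at the gene's 5′ end and 1 with 50% of the window covered, and 2 to 4 with 1 replicate left out. Within 2.5 kb there were 3. Marked regulators went from 1 to 5 within 5 kb and stayed at 1 with either replicate left out. The 11 bodies became 25 with the series-level mm10 list, 1 for peaks of fold enrichment 4 or more, 1 with 10% of the body covered, and 16 to 25 with 1 replicate left out (16 in replicate 1 alone, 25 in replicate 2 alone). A −log10 q of at least 2 left 11, but every replicated span peak already passed that level, so this setting could not change the count. Span coverage in HoxA, HoxB, HoxC and HoxD was 6.06%, 8.06%, 8.48% and 9.22% with the series-level list, 0%, 2.48%, 1.26% and 1.73% for peaks of fold enrichment 4 or more, and 0%, 2.53%, 2.42% and 1.86% in mm9 shared regions. With 1 replicate left out it ran from 2.67% to 4.00% in HoxA, 4.83% to 6.13% in HoxB, 4.54% to 5.55% in HoxC and 4.26% to 6.88% in HoxD. A HoxB span from Hoxb9 to Hoxb1, chosen after seeing the data, gave 5.24%. Both flanks together were covered over 6.43%, 2.42%, 1.17% and 1.94% in HoxA to HoxD. With the series-level list this was 8.27%, 3.31%, 1.59% and 2.72%. Peaks of at least 4 in fold enrichment gave 4.98%, 1.30%, 0.522% and 1.67%, and in mm9 shared regions 7.5%, 1.00%, 0% and 1.55%. Flanks of 100 kb gave 7.02%, 2.06%, 1.73% and 2.92%, and flanks of 500 kb 5.34%, 2.09%, 0.808% and 2.45%. With 1 replicate left out it ran from 5.35% to 6.72%, 2.17% to 2.30%, 0.970% to 1.25% and 1.39% to 2.05%. HoxA had the lowest span coverage and the highest flank coverage of the 4 clusters in every one of these settings, with its flank beyond group 13 at 11.5% and the opposite one at 1.34%. No paired analysis was possible because there is only 1 group. With 2 replicates and no read depth, a locus without a peak may be unmarked or under the callers' limits, and these cannot be told apart.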
